A study of Bos taurus with 18 samples.

Results

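The cytosines described here lie around 2 short clusters, 1 assigned to ACBD6 and 1 to INTS10, in reduced-representation bisulfite sequencing (RRBS) of EBTr cells, a fibroblast line from the trachea of a bovine embryo. Each table position is a cytosine in a CpG context, and a methylation level was measured at it in 18 libraries. Neighbouring positions up to 10000 bp apart were joined into regions, and the 2 regions that hold the clusters were taken whole. They contain 352 of 31500 cytosines, of which 205 are in the ACBD6 region and 147 in the INTS10 region. The cells were grown in medium of 2 glucose contents, Low with 1 g/L and High with 4.5 g/L, and with the basal content of the epigenetic modifiers (EM) folate, choline, vitamin B12 and methionine (Control) or with supplemented EM (×2.5 and ×5). The study's methods state that methionine was raised less than the other 3 in all supplemented media. Low Control, Low ×2.5, Low ×5, High Control, High ×2.5 and High ×5 had 3 libraries each, from cell pellets of 1 line that had been frozen in separate tubes. The sources do not say that the tubes were separate cultures, so that the p-values measure the spread between these tubes, which may be technical.

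Methyl groups on the cytosine of a CpG are copied to the new DNA strand after replication, and the methyl donor is made in the methionine and folate cycles. In differentiated cells such as fibroblasts most CpGs outside CpG islands carry a methyl group, and levels between none and full arise where cells or alleles differ. ACBD6 is an acyl-CoA binding domain protein that binds fatty acyl-CoA. INTS10 is a subunit of the Integrator complex, which cleaves nascent RNA of small nuclear RNA genes and of other genes made by RNA polymerase II. RRBS does not measure their expression. The gene names are those of the closest start sites in the study's own tables, and where the cytosines lie relative to exons or introns was not analysed here.

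The ACBD6 cluster holds 10 cytosines on chromosome 16 from 63167696 to 63167829 (bosTau8), a span of 134 bp. The INTS10 cluster holds 15 cytosines on chromosome 27 from 37641558 to 37641665, a span of 108 bp. Both clusters had been picked from measured differences between these treatments, so that their own values are given as a description with no test. The other 327 cytosines, 195 around the ACBD6 cluster and 132 around the INTS10 cluster, were included by position only and are called flanking cytosines. Only these were tested.

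The ACBD6 region extends from 63154038 to 63187324, or 33.3 kb, and the INTS10 region from 37626753 to 37648254, or 21.5 kb. By number of cytosines they rank 33 and 51 among 612 regions. The widest gaps within them were 5027 bp and 3190 bp. The nearest cytosine outside was 60027 bp beyond the end of the ACBD6 region but only 10135 bp before the start of the INTS10 region, which is just over the limit for joining.

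A methylation level was computed as the percentage implied by the deposited log2 ratio of methylated to unmethylated reads (M-value). Over all libraries, the mean level was 68.6% in the ACBD6 region and 72.8% in the INTS10 region, where it was 68.9% over the whole table. Levels were mixed along both regions. In the ACBD6 region 109 cytosines were over 70%, 87 were between 30% and 70% and 9 were under 30%. In the INTS10 region these counts were 97, 47 and 3. Of all cytosines, 58.9% were over 70%, 34.4% were between and 6.71% were under 30%.

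Neighbours could differ widely. The highest cytosine of the ACBD6 region, 63173815, lay between 92.7% and 97.5% in the 18 libraries. The lowest, 63173842, lay between 4.0% and 10.1%, although it is in the same short stretch. Over neighbours 2 to 50 bp apart, the median difference in mean level was 13.4 percentage points around ACBD6 and 8.99 points around INTS10. In the INTS10 region the highest cytosine was 37629306, with 92.5% to 97.1%, and the lowest was 37643810, with 10.2% to 25.8%. None of the 18 libraries reversed the order of the highest and the lowest cytosine in either region. Both were picked by their mean over these libraries, which fixes this order nearly in advance.

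**Figure D1:**
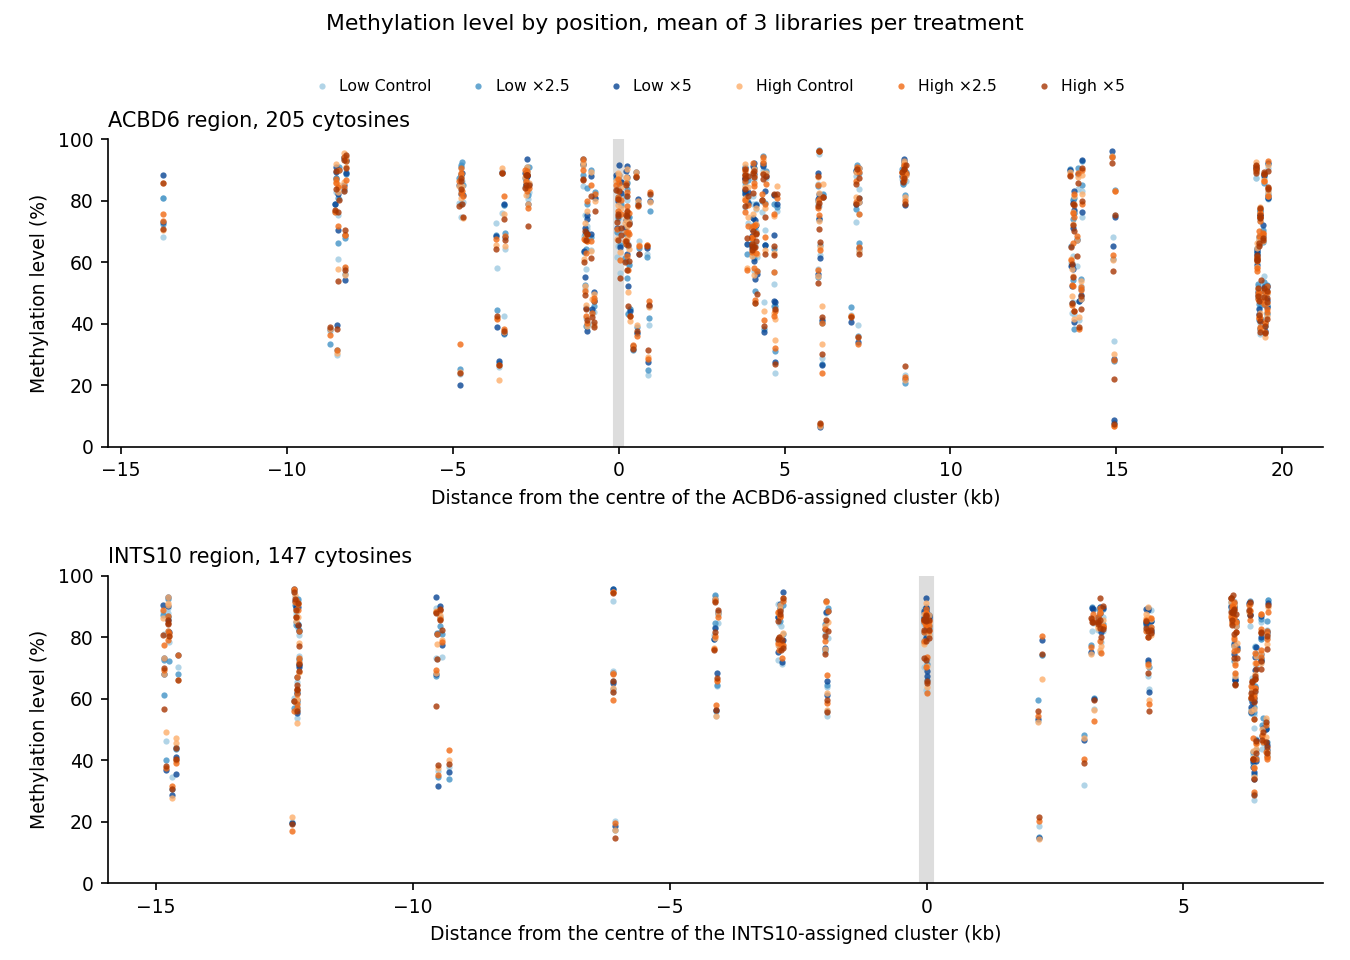
Methylation level (%, y axis) against distance from the centre of the ACBD6-assigned or INTS10-assigned cluster (kb, x axis), with 1 point for each cytosine and treatment (mean of 3 libraries). The grey band marks the cluster and is drawn wider than it is. High and low cytosines stand within the same short stretches, and the 6 treatments of a cytosine lie close together.

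This pattern by position was repeated in every library. Across the cytosines of a region, Pearson's r of the levels of 2 libraries was 0.888 to 0.972 around ACBD6 and 0.886 to 0.972 around INTS10, over 153 library pairs that share positions and their base composition. Of the variance in M-value, 92.2% and 91.2% lay between positions, 2.53% and 2.76% between treatments at a position and 5.22% and 6.00% between libraries of a treatment. The 6 treatment means of a cytosine had a median range of 6.44 points around ACBD6 and 6.36 points around INTS10, where the table had 6.77. A range over 10 points was found for 41 cytosines of the ACBD6 region (20.0%) and 14 of the INTS10 region (9.52%), against 23.1% of all cytosines. The median SD between libraries of 1 treatment was 4.44 and 4.20 points.

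Library averages also differed. The mean level over the whole table was 67.2% to 70.0%, with Low Control replicates 2 and 3 at 67.8% and 67.2% and Low Control replicate 1 at 69.6%. The ACBD6 region minus the table was -1.18 to 0.75 points in the 18 libraries, and the INTS10 region minus the table was 2.91 to 5.07 points. The mean of the ACBD6 flanking cytosines was 67.3% ± 1.39 (SD, n = 3) in Low Control, 69.1% ± 0.51 in Low ×5, 68.4% ± 0.30 in High Control and 67.4% ± 0.72 in High ×5. Around INTS10 these means were 71.4% ± 1.14, 72.4% ± 0.40, 71.9% ± 0.31 and 71.0% ± 0.32. The flanking means of all 6 treatments lay within 1.82 points of each other around ACBD6 and within 1.35 points around INTS10. The part of the library averages in the contrasts below was not tested, and for the contrasts in which the split of calls moved, counts after centring each library on its median are given beside it.

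The ACBD6 cluster had its lowest mean levels in Low Control and High ×5. Its mean level per library was 74.2%, 77.3% and 73.9% in Low Control, 79.7%, 78.5% and 82.0% in Low ×2.5, and 81.3%, 82.9% and 82.9% in Low ×5. In High glucose it was 80.9%, 79.7% and 81.1% in Control, 79.2%, 76.3% and 79.6% at ×2.5, and 75.6%, 69.2% and 75.2% at ×5. The Low libraries were thus lowest without supplement and the High libraries lowest at ×5. Low Control and Low ×5 did not overlap, nor did High Control and High ×5. High ×5 replicate 2 was the lowest library, and the treatment means were 75.1% ± 1.87 in Low Control, 82.4% ± 0.92 in Low ×5, 80.6% ± 0.74 in High Control and 73.3% ± 3.58 in High ×5.

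Most cytosines of the ACBD6 cluster differed in the same direction. They lie within 134 bp and may share reads, so that they do not count as independent. In Low ×5 vs. Low Control, 9 of 10 had a higher mean level, by 3.87 to 14.6 points, and 63167753 differed by -0.32 points. The average over the 10 was 7.26 points. In High ×5 vs. High Control, 9 of 10 had a lower mean level, by an average of -7.28 points, and the exception was 63167717, which had 63.6%, 67.6% and 71.1% in High Control and 70.4%, 70.8% and 78.4% in High ×5. The difference of these 2 responses was negative for all 10, with an average of -14.5 points. Comparing the glucose levels at ×5, 9 of 10 were lower in High, by an average of -9.09 points. These contrasts share libraries and may have had a part in the choice of the cluster, so that nothing is read from them together.

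Single cytosines of the cluster show the spread behind these means. Position 63167755 had 70.0%, 59.1% and 66.7% in Low Control and 73.3%, 82.5% and 83.6% in Low ×5, without overlap. In High Control it had 81.8%, 78.4% and 75.6%, and in High ×5 it had 66.7%, 62.5% and 72.2%, again without overlap. Position 63167827 had 83.6%, 81.1% and 88.6% in High Control and 85.2%, 66.7% and 61.1% in High ×5, so that replicate 1 stayed within the Control range. The first of the cluster, 63167696, had 83.6%, 86.5% and 88.9% in High Control and 74.1%, 87.5% and 89.2% in High ×5, and only replicate 1 was below the Controls.

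The INTS10 cluster had the same order of treatments in Low glucose and smaller steps in High. Its mean level per library was 81.2%, 79.1% and 77.8% in Low Control, 82.3%, 83.4% and 81.9% in Low ×2.5, and 84.3%, 85.0% and 84.0% in Low ×5. In High glucose it was 82.5%, 81.2% and 83.6% in Control, 82.0%, 81.6% and 80.7% at ×2.5, and 79.2%, 79.7% and 81.6% at ×5. Low Control lay below the other Low libraries, whereas High Control and High ×5 overlapped. In Low ×5 vs. Low Control, 13 of 15 cytosines had a higher mean, by an average of 5.09 points. All 15 had a lower mean in High ×5 than in Low ×5, by 0.63 to 12.1 points in size. These cytosines lie within 108 bp and may also share reads.

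Flanking clusters also differed between treatments, but they held from 3 to 35 cytosines, so that their spans do not compare like with like. With cytosines less than 100 bp apart averaged as M-values, the 6 treatment levels of the ACBD6 cluster spanned 9.45 points, and those of 18 flanking clusters of the ACBD6 region spanned 0.64 to 8.28 points (median 4.16). For the INTS10 cluster the span was 4.89 points, and 12 flanking clusters of its region had 0.62 to 11.0 points (median 3.45), of which 3 were at or above it. The flanking cluster of 35 cytosines spanned 0.64 points and that of 3 cytosines spanned 11.0 points. No test of these spans was made.

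**Figure D2:**
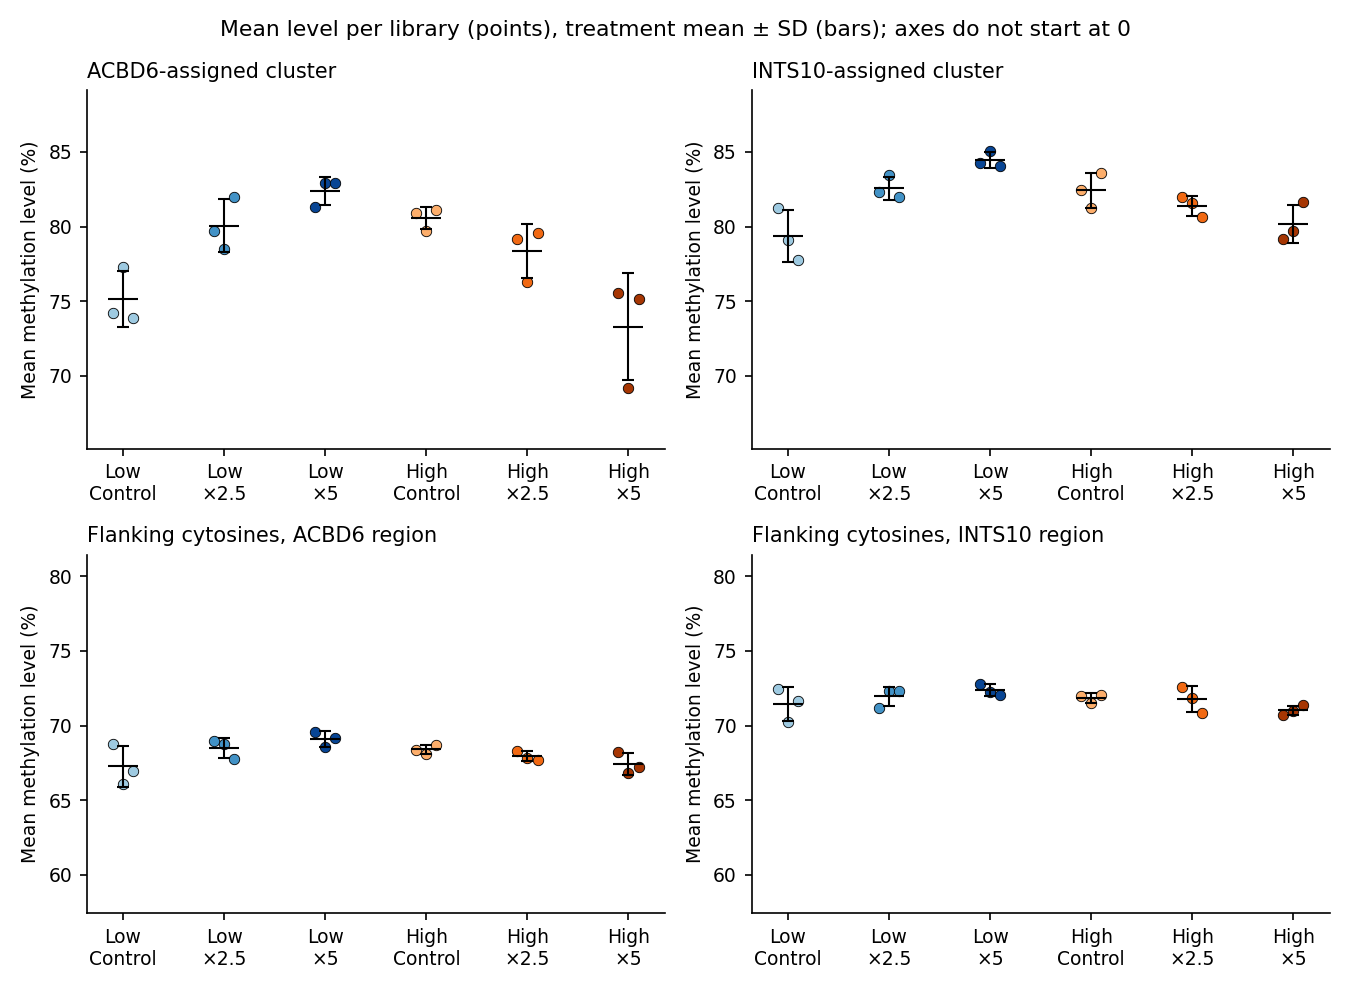
Mean methylation level (%, y axis, which does not start at 0) of the clusters (top) and of the flanking cytosines (bottom) in each library (points) of the 6 treatments (x axis), with treatment mean ± SD. The ACBD6 cluster runs from 73.3% in High ×5 to 82.4% in Low ×5, and the mean over all 195 flanking cytosines stays within 1.82 points. These do not compare like with like, since a mean over many cytosines narrows the span. Single flanking clusters of the ACBD6 region, averaged as M-values, spanned up to 8.28 points.

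With each library centred on its median M-value, the ACBD6 cluster had 76.1% ± 2.67 in Low Control, 81.7% ± 1.44 in Low ×5, 80.3% ± 0.39 in High Control and 74.1% ± 2.63 in High ×5. The INTS10 cluster had 80.3% ± 0.32, 83.8% ± 0.72, 82.1% ± 0.95 and 80.8% ± 1.20. The order of these 4 treatments was kept under centring and with libraries scaled to equal mean and SD, a setting chosen after seeing the data. Both settings rescale the same values of clusters picked for their differences. A kept order was thus favoured in advance, and nothing is read from it.

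In the INTS10 cluster the change was uneven between adjacent positions. A position and the next base were taken as the cytosines of both strands of 1 CpG, although the sequence was not used here to check this. The cluster has 7 such pairs and the ACBD6 cluster has none. The lower position of a pair, by coordinate, had a mean of 74.7% ± 3.70 in Low Control, 80.8% ± 0.64 in Low ×2.5 and 84.2% ± 1.19 in Low ×5. The next position had 83.8% ± 0.32, 84.1% ± 1.28 and 84.3% ± 0.41, so that its means lay closer together. In High glucose the lower position had 81.1% ± 2.54, 78.3% ± 3.43 and 78.3% ± 1.23 from Control to ×5, and the next position had 83.0% ± 1.98, 84.4% ± 2.41 and 81.7% ± 0.90.

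Position 37641606 is an example. It had 68.4%, 62.5% and 57.1% in Low Control, 80.0%, 84.1% and 75.5% in Low ×5, and 78.8%, 88.9% and 84.3% in High Control. Its partner 37641607 had 80.5%, 84.6% and 81.2%, then 85.4%, 82.0% and 84.3%, and then 80.4%, 87.4% and 84.0%. Of these 3 treatments, Low Control was the lowest without overlap at 37641606 and overlapped both other treatments at 37641607. Likewise, 37641558 had 68.4%, 70.8% and 71.4% in Low Control and 82.1%, 88.9% and 87.8% in Low ×5, while 37641559 had 89.1%, 90.8% and 87.5% and then 85.8%, 89.4% and 90.3%. From Low Control to Low ×5, the 7 lower positions all rose in mean level, by an average of 9.53 points. The 7 next positions differed by an average of 0.55 points, with 5 of 7 higher. Positions on 1 strand may share reads, so that the 7 do not count as independent.

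Elsewhere, adjacent positions had nearly the same level. Among 45 flanking pairs the median difference was 0.98 points, and 44 pairs differed by less than 5 points. Among 6516 pairs of the whole table the median difference was 1.83 points, and 83.1% differed by less than 5 points. The 7 pairs of the INTS10 cluster had a median difference of 5.33 points. The lower position had the lower level in 6 of them, and 37641652 and 37641653 were both at 83.7%. The lower positions of the cluster also varied more within a treatment, with a median SD of 5.22 points against 3.22 for the next positions, where both positions had 3.77 in the flanking pairs. Positions covered by few reads are noisier. Read depth on each strand was not worked out from the values, and its part in these differences was not tested. A call was seldom shared by a pair. The flanking pairs had 6 calls (unadjusted p under 0.01) over 10 contrasts, and in 0 cases was the partner called in the same contrast. In the whole table, both positions were called in 19 cases while 1656 single calls fell on paired positions.

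**Figure D3:**
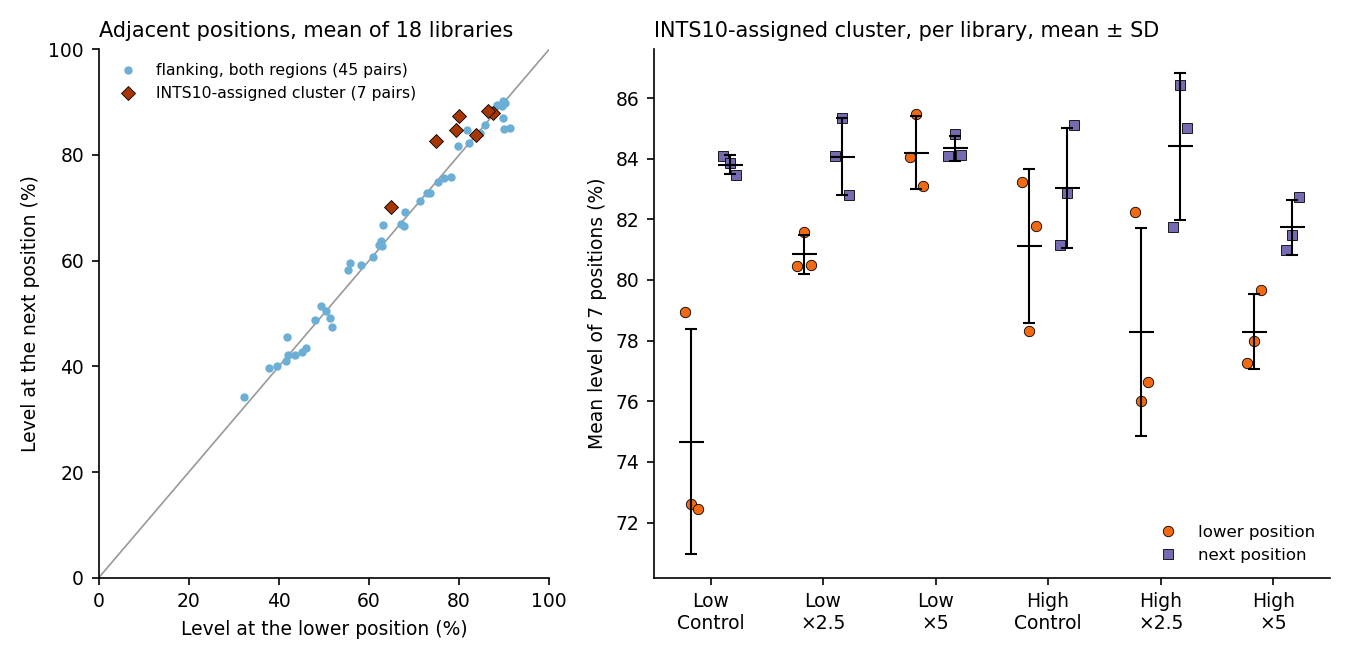
Left, mean level over 18 libraries (%) of the lower position (x axis) and the next position (y axis) of each adjacent pair, with the line of equal levels. Right, mean level (%, axis not from 0) of the 7 lower and the 7 next positions of the INTS10 cluster in each library, with treatment mean ± SD: the lower positions have 74.7% in Low Control and 84.2% in Low ×5, the next positions 83.8% and 84.3%.

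The flanking cytosines were tested with limma in the 10 contrasts of the study, with High vs. Low averaged over EM levels and with the glucose by EM interaction at each EM level. Calls were made where the unadjusted p-value was below 0.01, which is the study's threshold, and a called cytosine is methylated if it is higher in the treatment named first and demethylated otherwise. After Benjamini-Hochberg adjustment over the table, limma called 0 flanking cytosines (adjusted p-value below 0.05) in each of these 13 comparisons, and the smallest adjusted p-value over the 10 contrasts was 0.34. All calls below are thus at the unadjusted threshold. They are read against the share of all 31500 cytosines called in the same contrast.

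In Low ×5 vs. Low Control, 11 of 327 flanking cytosines were called (3.36%), 7 around ACBD6 and 4 around INTS10, against 2.4% of all cytosines. Of these 8 were methylated and 3 demethylated (1.78% and 0.619% of all cytosines), and with libraries centred on their median 4 were methylated and 3 demethylated. Centring moved the median log2 difference in this contrast from 0.10 to -0.06 over all cytosines and from 0.11 to -0.05 over the flanking cytosines. In Low ×2.5 vs. Low Control, 8 were called against 2% of all cytosines, 6 methylated and 2 demethylated (1.53% and 0.47% of all), or 3 and 3 after centring. Low ×5 vs. Low ×2.5 had 2 calls, both methylated, against 0.371% of all cytosines (0.229% methylated and 0.143% demethylated).

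In High cells, 7 flanking cytosines were called in High ×5 vs. High Control, 4 around ACBD6 and 3 around INTS10, where 1.37% of all cytosines were called. Of these 3 were methylated and 4 demethylated (0.292% and 1.08% of all), or 4 and 2 after centring. High ×2.5 vs. High Control had 5 calls against 1.02% of all cytosines, 1 methylated and 4 demethylated (0.343% and 0.676% of all), or 2 and 3 after centring. In High ×5 vs. High ×2.5, 5 were called against 1.47%, 2 methylated and 3 demethylated (0.454% and 1.02% of all), or 4 and 3 after centring.

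Between glucose levels, 7 were called at ×5 (High ×5 vs. Low ×5) against 1.61% of all cytosines, 2 methylated and 5 demethylated (0.305% and 1.3% of all), or 4 and 4 after centring. At Control level, High vs. Low had 5 calls against 1.92%, 3 methylated and 2 demethylated (1.38% and 0.543% of all), or 2 and 2 after centring. At ×2.5, limma called 0 against 1.01% (0.308% methylated and 0.698% demethylated). In that contrast 11 of 327 (3.36%) had an unadjusted p-value below 0.05, against 5.14% of all cytosines. With libraries scaled to equal mean and SD, limma called 1 there. High ×5 vs. Low Control had 5 calls against 1.75%, 2 methylated and 3 demethylated (0.94% and 0.813% of all), or 2 and 4 after centring. High vs. Low averaged over EM levels had 1 demethylated against 1.08% (0.397% methylated and 0.686% demethylated). The interaction was called for 8 flanking cytosines at ×5 and 4 at ×2.5, where 2.79% and 1.85% of all cytosines were called. At ×5 the difference in High was above that in Low for 2 and below it for 6 (0.568% and 2.23% of all), or 4 and 4 after centring. At ×2.5 it was above for 1 and below for 3 (0.435% and 1.42% of all), or 2 and 1 after centring.

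**Figure D4:**
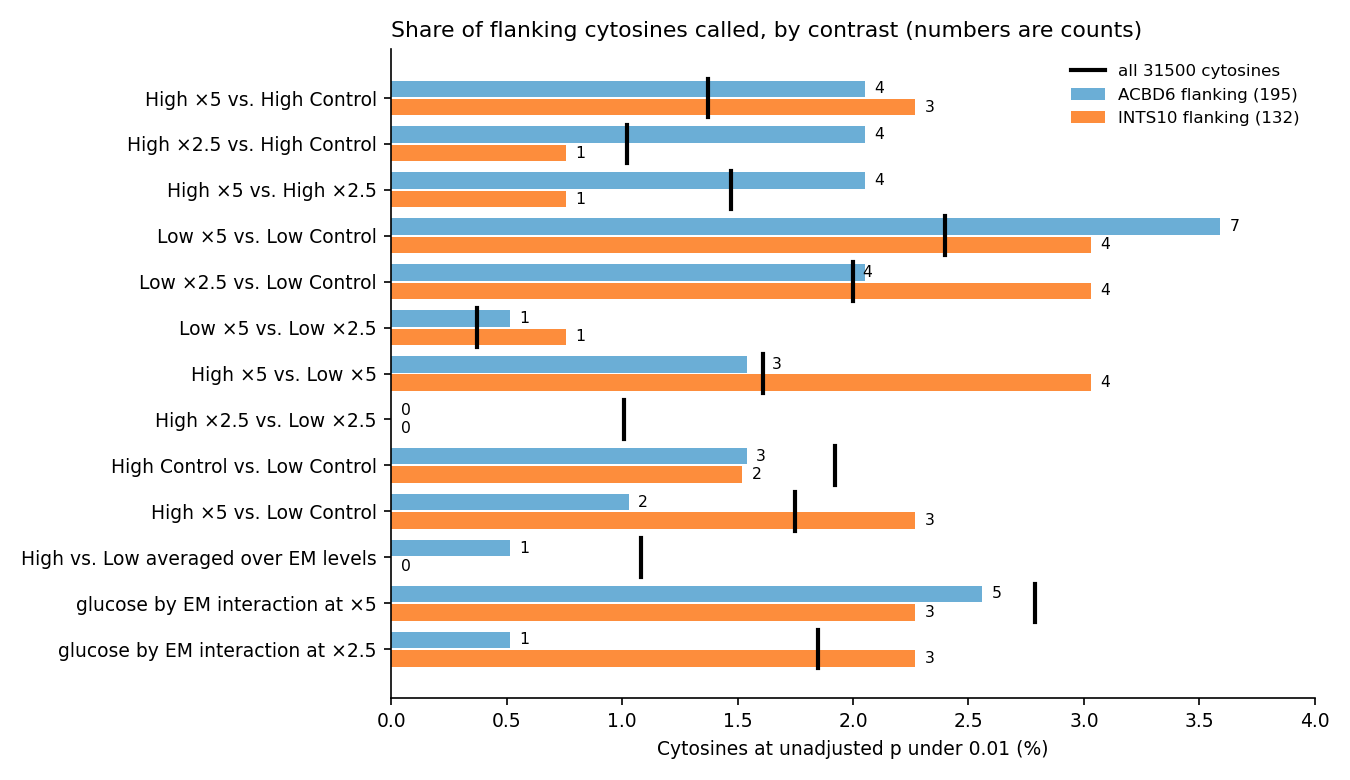
Share of flanking cytosines called at an unadjusted p-value under 0.01 (%, x axis) in each of 13 comparisons (y axis), as bars for the ACBD6 (195) and INTS10 (132) flanks with the number called, and as a black line for all 31500 cytosines. The bars lie on both sides of the lines, at 0 in High ×2.5 vs. Low ×2.5 and at most at 3.59% (ACBD6, Low ×5 vs. Low Control).

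Over the 10 contrasts there were 55 calls, 29 methylated and 26 demethylated (51 after centring, 27 and 24), which is 1.68% of the flanking tests against 1.49% in the table. They fell on 27 of 327 flanking cytosines (8.26%), where 9.68% of all cytosines were called at least once. Low Control was a side of 29 of the 55 calls (52.7%), as of 54.1% of all calls in the table. The libraries of the 2 treatments did not overlap in 51 of the 55 calls. Calls were selected by p-value, which favours this, and the share was not computed for all calls of the table. The 7 cytosines called in 3 or more contrasts were 2.14% of the flanking cytosines, against 1.19% of the table, and the contrasts share libraries.

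Around ACBD6, the smallest p-value was at 63164257, which lies 3.51 kb before the cluster centre. It had 86.7%, 72.2% and 69.0% in Low Control, 90.3%, 89.6% and 92.5% in High Control, and 85.5% to 91.3% in the other 12 libraries. Low Control replicates 2 and 3 were far below all the others, and replicate 1 was within the range of the supplemented libraries. High Control vs. Low Control gave a log2 difference of 1.57 (SE 0.36, limma, unadjusted p = 0.000508, adjusted p = 0.426). Without Low Control replicate 1 it was 2.05 with an adjusted p of 0.0579. It was called in all 4 contrasts with Low Control. The same 2 libraries have low averages over the whole table (67.8% and 67.2%), and High ×5 replicate 2, with a table average of 67.6%, had 91.1% here. The part of the library averages at this cytosine was not tested.

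At 63159317, 8.45 kb before the centre, High ×2.5 and Low ×5 were high. High ×2.5 had 75.4%, 70.6% and 69.6% and Low ×5 had 73.2%, 68.6% and 69.6%, where High Control had 58.2%, 62.1% and 53.5% and the 3 High ×5 libraries had 57.5% or less. High ×2.5 did not overlap the other High libraries. The log2 difference of High ×5 vs. High ×2.5 was -1.13 (SE 0.26, unadjusted p = 0.00051, adjusted p = 0.591), and that of High ×5 vs. Low ×5 was -1.03 (SE 0.26, unadjusted p = 0.00115, adjusted p = 0.459).

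The nearest named cytosine to the ACBD6 cluster, 63168013, lies 0.25 kb after its centre. It had 94.3%, 89.3% and 90.7% in Low ×5, and 81.5%, 79.2% and 83.8% in High ×5. High Control had 90.9%, 89.2% and 91.1%, and Low Control had 88.0%, 81.0% and 88.9%. High ×5 was below Low ×5 and below High Control without overlap. High ×5 vs. Low ×5 gave -1.32 (SE 0.32, unadjusted p = 0.000786, adjusted p = 0.457), and High ×5 vs. High Control gave -1.10 (SE 0.32, unadjusted p = 0.00345, adjusted p = 0.622). Its signs in these contrasts were those of the ACBD6 cluster means.

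Around INTS10, 37647583, 5.97 kb after the cluster centre, had 94.1%, 93.7% and 93.0% in High ×5 and 88.1%, 83.9% and 86.6% in High Control. All 3 High ×5 libraries were above the Controls, opposite in sign to the INTS10 cluster. The log2 difference was 1.22 (SE 0.28, unadjusted p = 0.000551, adjusted p = 0.444). Its next base, 37647584, taken as the other strand of the same CpG, had treatment means within 2.03 points of each other. That partner was called in 0 of the 10 contrasts. In High ×5 vs. Low ×5 it differed by -1.64 points, where 37647583 differed by 4.57 points. At 37639695, 1.92 kb before the centre, Low Control had 85.7%, 76.3% and 77.5%, and Low ×2.5 had 88.9%, 91.1% and 88.6%. Low ×2.5 vs. Low Control gave 1.09 (SE 0.25, unadjusted p = 0.000562, adjusted p = 0.436) and Low ×5 vs. Low Control gave 0.95 (SE 0.25, adjusted p = 0.34).

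At 37626775, 14.8 kb before the centre, Low Control was the highest treatment. It had 80.6%, 78.4% and 84.0%, and High ×5 had 69.6%, 74.2% and 66.7%, with a log2 difference of -0.86 (SE 0.21, unadjusted p = 0.000715, adjusted p = 0.475). Low Control was also above Low ×5, which had 73.2%, 71.6% and 74.6%. At 37645971, Low Control had 88.4%, 88.0% and 90.5% and High ×5 had 82.6%, 78.9% and 82.5%, with a difference of -0.89 (SE 0.25, unadjusted p = 0.00256, adjusted p = 0.49) that was not called without Low Control replicate 3 or without High ×5 replicate 2. Both cytosines were also called lower in Low ×5 vs. Low Control, where 62.0% of all cytosines had a higher mean. The last, 37644814, had 83.3%, 86.2% and 89.2% in High ×5 and 73.5%, 78.0% and 73.9% in Low ×5, with a difference of 1.07 (SE 0.33, unadjusted p = 0.0054, adjusted p = 0.579), and this call was lost without any 1 of Low ×5 replicates 1 and 3 and High ×5 replicates 2 and 3.

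**Figure D5:**
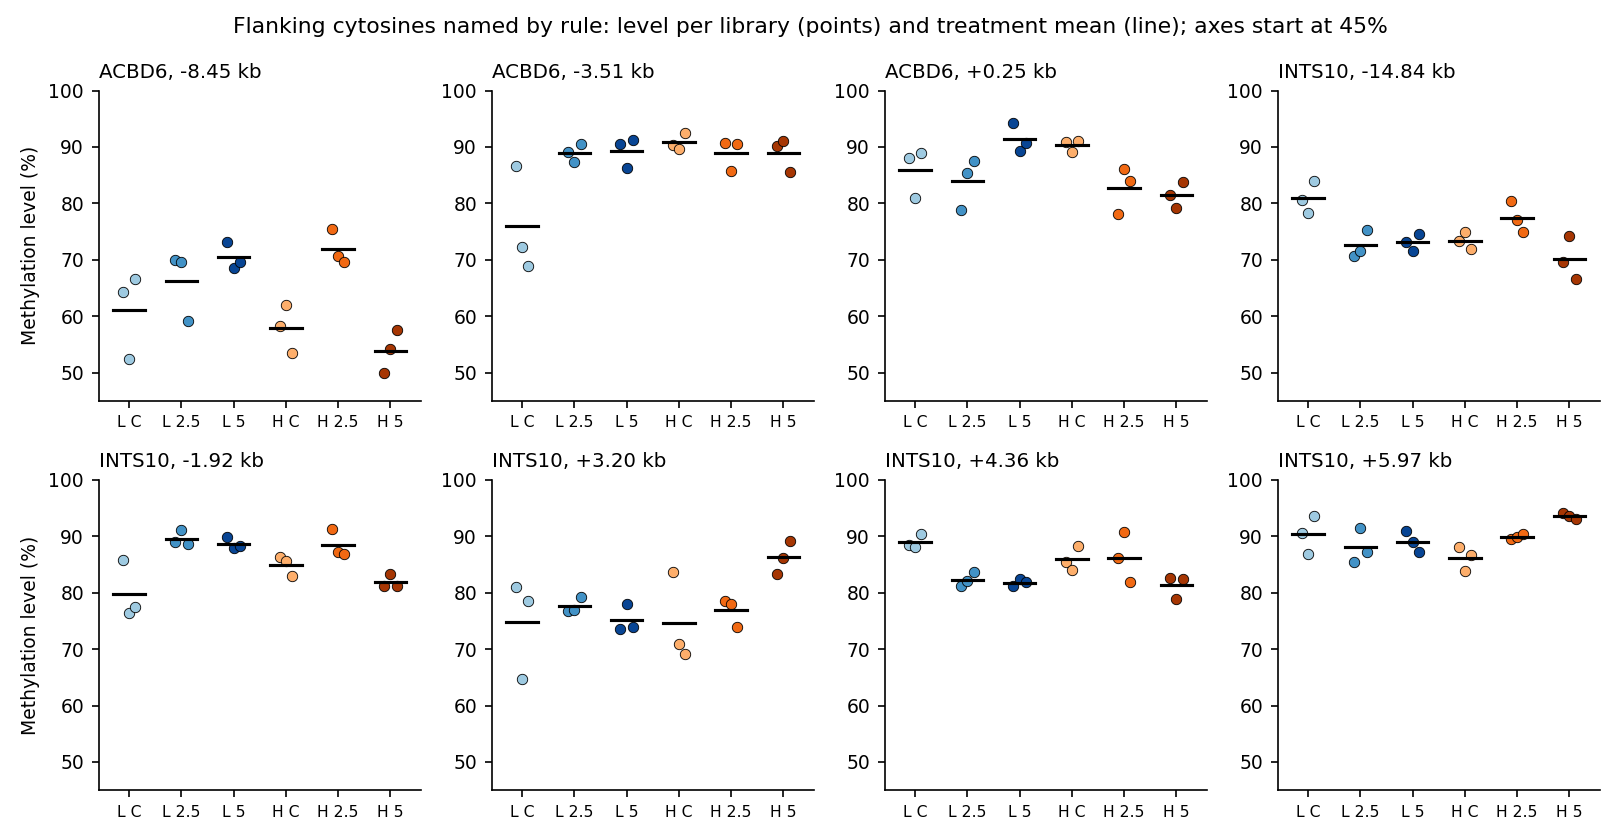
Methylation level (%, y axis from 45%) in each library (points), with the treatment mean (line), of the 8 flanking cytosines named by rule, each labelled with its region and its distance from the cluster centre (kb). L and H are Low and High glucose, C is Control, and 2.5 and 5 are the EM levels. The outlying treatment differs from panel to panel, for example Low Control at -3.51 kb and High ×5 at +5.97 kb.

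Averaging neighbours less than 100 bp apart gave 30 flanking clusters of at least 3 cytosines, 18 around ACBD6 and 12 around INTS10, among 2663 in the table. Of their 300 tests over the 10 contrasts, 3 were called (1%), against 1.84% of the tests of all clusters. Whether the flanks lay below or above the table depended on the setting: with a replicate block 7 flanking tests were called (2.33%, against 2.05% of all tests), without replicate 1 there were 5 (1.67%, against 3.38% of all tests), without replicate 2 there were 4 (1.33%, against 0.732% of all tests) and without replicate 3 there were 6 (2%, against 1.48% of all tests). In High ×5 vs. High Control 1 flanking cluster was called against 1.99% of all clusters, and in Low ×2.5 vs. Low Control 2 were called against 2.78%. Around INTS10 the smallest p-value was that of 12 cytosines from 37626753 to 37627040 in High ×5 vs. High Control, with a log2 difference of -0.46 (SE 0.13, limma, unadjusted p = 0.00207, adjusted p = 0.482). Around ACBD6 it was that of 7 cytosines from 63162967 to 63163067 in Low ×2.5 vs. Low Control, with 0.68 (SE 0.20, unadjusted p = 0.00403, adjusted p = 0.305). The third was 17 cytosines from 63181373 to 63181725 in the same contrast, with 0.38 (SE 0.13, unadjusted p = 0.0088, adjusted p = 0.329). In Low ×5 vs. Low Control, where 4.09% of all clusters were called, limma called 0 flanking clusters, and the smallest adjusted p-value in the 10 contrasts was 0.25. The 35 cytosines at the far end of the ACBD6 region, 63186963 to 63187324, had no unadjusted p-value under 0.679 in any of them.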

How the data were processed

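According to the submitters' processing notes and the study's methods, reads were trimmed with Cutadapt, mapped to bosTau8 and called with Bismark 0.22.3. The authors deposited a log2 table of 31500 cytosines by 18 libraries, whose M-values compare methylated with unmethylated reads after adding an offset that is not named. The level in percent was computed from the M-value and retains this offset. The depth is not stated with the values and was not worked out from them, and hence no counting interval is printed. M-values from few reads are noisier.

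The package limma 3.58.1 (R 4.3.3) was fitted to all cytosines and libraries, with 1 mean per treatment, two-sided, and p-values were adjusted over the table. The 6 treatments share the spread of each cytosine, and eBayes added 4.11 prior degrees of freedom. Contrast 6 of the study is printed as a repeat of contrast 4 and was read as Low ×5 vs. Low ×2.5. The members and lists were chosen with earlier results of these data known. Flanking cytosines named are, in each region, the 3 with the smallest p-value over the 10 contrasts, those called in 3 or more, and the highest and lowest in mean level, with the flanking cluster of smallest p-value. In simulated data for Low ×5 vs. Low Control (31500 cytosines, 200 changed), limma called 61.5% of cytosines given a log2 change of 1 and 97.5% of those given 2. Of the unchanged it called 1.15% and 1.12%. The simulated noise was independent, with 1 SD per cytosine and without library shifts or links between neighbours. These shares are thus not the rate of false calls in the data.

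The alternatives were the libraries of a contrast alone, a replicate block, libraries centred, levels as fractions, mean levels from 10% to 90%, robust and trended eBayes, adjusted p-values, a minimum difference of 10 points, other joins, and leaving out libraries. Figures were drawn with matplotlib 3.10.9.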

Additional observations from a re-analysis of the deposited data

Results flagged for a closer look

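For 10 flanking cytosines, 5 of them around ACBD6 and 5 around INTS10, the response to EM differed between glucose levels at an unadjusted p-value under 0.01 for the interaction in limma (the difference in High minus that in Low). At ×5 these were 8 of 327 (2.45%), where 2.79% of all cytosines were called. At ×2.5 they were 4 of 327 (1.22%), where 1.85% were, so that both shares were below those of the table. In both regions, 0 of these had an adjusted p-value under 0.05, and all values are on the log2 scale. With libraries centred on their median, 8 were called at ×5 (4 positive and 4 negative) and 3 at ×2.5. With libraries scaled to equal mean and SD, 5 and 2 were called.

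At ×5 the interaction was -1.62 at 63164257 (adjusted p = 0.32), -1.93 at 63166698 (adjusted p = 0.32), -1.91 at 63168013 (adjusted p = 0.222) and -1.41 at 63175019 (adjusted p = 0.238). It was 1.47 at 63172443 (adjusted p = 0.32), which was 1.14 higher in High ×5 than in High Control. Around INTS10 it was -2.07 at 37626840 (adjusted p = 0.247), -1.28 at 37639695 (adjusted p = 0.27) and 1.47 at 37647583 (adjusted p = 0.266). The next bases of 37626840 and 37647583 were not called for it. At 63168013 the difference was 0.81 in Low and -1.10 in High.

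At ×2.5 the interaction was -1.55 at 63164257 (adjusted p = 0.523), 1.02 at 37626775 (adjusted p = 0.485), -1.61 at 37626840 (adjusted p = 0.523) and -1.87 at 37626841 (adjusted p = 0.503). The last 2 are adjacent positions, with a difference of 0.53 and 0.52 in Low and of -1.08 and -1.34 in High. Adjacent positions were taken above as 1 CpG, and the share of pairs with both positions called for the interaction was not computed over the table. In High ×2.5 vs. High Control only 37626841 of these was called, and the libraries of the 2 treatments overlapped there.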

How the results depend on the processing

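The 8 named differences had been chosen by their p-values in these same data, and the alternatives refit largely the same values. Keeping the sign and the threshold was thus favoured in advance. None of the 8 differences changed sign under any alternative run. They stayed under the unadjusted threshold in 95 of 104 alternative fits and missed it in 9, 5 of them at 37644814, 3 at 37645971 and 1 at 37626775. Their adjusted p-values over these fits were 0.0579 or more. At an adjusted p-value under 0.05 limma called 0 flanking cytosines in each of the 13 comparisons with all libraries.

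Counts of flanking cytosines were small and moved by more than 1.5 times under several alternatives, and the cause was not tested. With only the libraries of a contrast, where fewer residual degrees of freedom remain, 3 were called in High ×5 vs. High Control (7 with all libraries), 3 in High ×2.5 vs. High Control (5), 2 in High ×5 vs. High ×2.5 (5), 4 in Low ×5 vs. Low Control (11), 11 in High ×5 vs. Low ×5 (7), 2 in High Control vs. Low Control (5), 1 in High ×5 vs. Low Control (5) and 2 for the interaction at ×2.5 (4). Centring left 7 in Low ×5 vs. Low Control. Levels as fractions gave 1 in Low ×5 vs. Low ×2.5, 9 in High ×5 vs. Low Control and 2 in High vs. Low averaged over EM levels. Requiring 10 points, which can only remove calls, left 4 in High ×5 vs. High Control, 3 in High ×2.5 vs. High Control, 3 in High ×5 vs. High ×2.5, 5 in Low ×5 vs. Low Control, 2 in Low ×2.5 vs. Low Control, 0 in Low ×5 vs. Low ×2.5, 3 in High ×5 vs. Low ×5, 2 in High Control vs. Low Control and 0 in the average. Libraries scaled to equal mean and SD, chosen after seeing the data, gave 7 in Low ×5 vs. Low Control, 5 in Low ×2.5 vs. Low Control, 1 in High ×2.5 vs. Low ×2.5, 5 for the interaction at ×5 and 2 for that at ×2.5.

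Leaving out 1 library, with the spread shared over treatments, gave 4 to 6 calls in High ×5 vs. High Control, 1 to 6 in High ×2.5 vs. High Control, 3 to 9 in High ×5 vs. High ×2.5, 5 to 12 in Low ×5 vs. Low Control (5 without Low ×5 replicate 1), 5 to 13 in Low ×2.5 vs. Low Control (13 without Low Control replicate 1), 1 to 5 in Low ×5 vs. Low ×2.5, 3 to 7 in High ×5 vs. Low ×5, 1 to 4 in High ×2.5 vs. Low ×2.5, 1 to 9 in High Control vs. Low Control (1 without Low Control replicate 3, 9 without replicate 1), 4 to 11 in High ×5 vs. Low Control (11 without Low Control replicate 2), 1 to 3 in the average, 5 to 16 for the interaction at ×5 (16 without Low Control replicate 1) and 1 to 5 for that at ×2.5.

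The replicate numbers are shared between treatments. The 45 correlations of same-numbered deviations were -0.11 to 0.12, with 1 over 0.1, and those of other numbers were -0.10 to 0.10. Of 18 libraries, 6 correlated best with their own number. Low correlations over all cytosines cannot exclude a pairing or a batch by number. With a replicate block, 2 were called in High Control vs. Low Control (5 without), the other counts stayed within 1.5 times, and 7 flanking clusters were called in place of 3. There were 5 with neighbours less than 50 bp apart, and leaving out a replicate number gave 4 to 6. Joining positions up to 20 kb apart would give the INTS10 region 326 cytosines. The regional treatment means were recomputed after centring and, separately, without the ACBD6 or INTS10 cluster. Of these 24 means, 15 moved by at least 1 SD. Leaving out the cluster changes which cytosines are averaged, so that the 15 do not measure processing alone. For example, it took the INTS10 region in Low ×5 from 73.6% (SD 0.36) to 72.4%. Depth limits the precision by an amount that was not estimated.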
